A study of Homo sapiens with 8 samples.

Results

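The replication-dependent histone genes were examined in HCT8 cells, a human ileocecal colorectal adenocarcinoma cell line, after 5 h with membrane vesicles (MVs) from the gut bacterium Escherichia coli K-12 strain MC1061, after 5 h with MVs from the cholera pathogen Vibrio cholerae strain C6706, or after mock treatment with the vesicle buffer. Members were the protein-coding genes on chromosomes 1 and 6 whose symbol is H2AC, H2BC, H3C or H4C plus a number, or H1-1 to H1-6. The rule found 65 of the 20098 protein-coding genes of chromosomes 1 to 22 plus X, namely 6 H1, 17 H2A, 16 H2B, 13 H3 and 13 H4 genes. H4C2 and H2AC18 stood under older symbols, and H2BC7, H2BC8 and H4C6 were not analysed here. The data were lists of H3K4me3 ChIP-seq peaks and of FAIRE-seq peaks, with 1 library per treatment and assay, and thus 6 lists. No value has a replicate check, and the 95% intervals given with ratios cover counting error only, so a difference between treatments cannot be told apart from a difference between single libraries.

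Replication-dependent histone genes supply the bulk of new histones during S phase. Most lack introns, their mRNAs end in a stem-loop bound by SLBP in place of a poly(A) tail, and they lie in clusters where the coactivator NPAT gathers in histone locus bodies. H2A, H2B, H3 and H4 build the nucleosome core, and H1 histones bind the linker DNA. H3K4me3, trimethylation of lysine 4 of histone H3, marks the promoters of genes that are active or poised. FAIRE (formaldehyde-assisted isolation of regulatory elements) recovers DNA that is depleted of nucleosomes.

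Counting start sites less than 100 kb apart as 1 cluster, the 65 genes fell into 6 clusters. Clusters 1 and 2 lay on chromosome 1, with 11 genes between 149.8 and 149.9 Mb and with H2AC25 and H2BC26 at 228.6 Mb. Clusters 3 to 6 lay on chromosome 6: H2AC1 and H2BC1 at 25.7 Mb, 29 genes between 26.0 and 26.3 Mb, 5 genes at 27.1 Mb and 16 genes between 27.8 and 27.9 Mb. Cluster 4 spanned 267.9 kb and held all H1 members but H1-5. Positions are on GRCh37 (hg19), the build of the lists.

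Several histone classes differed in the motifs of the 250 bases before the annotated start site. In total 5 short motifs, known from work on histone promoters, were searched on both strands: TATAAA (the core promoter element that binds TBP), CCAAT (bound by NF-Y), ATTTGCAT (the octamer of H2B promoters, bound by POU2F1), AAACACA (the H1 box) and GGTCCG (core of the H4 site II element, to which HINFP binds). No searched motif contains another. TATAAA stood in 43 of 65 members (66.2%), against 9.42% of all 20098 promoters of this length, and CCAAT in 55 members (84.6%), against 34.1% of all. The octamer was present in 12 of 16 H2B and 12 of 17 H2A promoters and in no H1, H3 or H4 promoter, against 1.53% of all promoters. The stretches of H2A and H2B genes that face away from each other overlap, so that 1 octamer can count for both genes. The H1 box was present in all 6 H1 promoters and in no other member, against 3.69% of all. GGTCCG was present in 11 of 13 H4 promoters and in 3 of the other members, against 12.1% of all. The 13 members without an H3K4me3 peak in any library also held TATAAA in 7 and CCAAT in 10 promoters. Median GC content was 43.6% in members and 63.2% in all promoters, and the median number of CpG dinucleotides was 9 against 18. A match describes letters and not a bound site.

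The promoters of 3 members are shown, those of genes with the highest and the lowest H3K4me3 ratio to mock and that of an H1 gene whose ratio depends on how its peaks are joined. They run 5′ to 3′ on the strand of the gene, from 250 bases before the start site to the base before it, with the motifs found on either strand in capitals.
H4C13, chr6:27841313-27841562, minus strand: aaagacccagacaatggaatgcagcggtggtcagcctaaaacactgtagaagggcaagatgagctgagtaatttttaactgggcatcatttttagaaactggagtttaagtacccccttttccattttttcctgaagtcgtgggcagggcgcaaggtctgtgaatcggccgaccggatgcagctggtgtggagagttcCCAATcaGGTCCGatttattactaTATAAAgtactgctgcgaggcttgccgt
H2BC14, chr6:27782550-27782799, plus strand: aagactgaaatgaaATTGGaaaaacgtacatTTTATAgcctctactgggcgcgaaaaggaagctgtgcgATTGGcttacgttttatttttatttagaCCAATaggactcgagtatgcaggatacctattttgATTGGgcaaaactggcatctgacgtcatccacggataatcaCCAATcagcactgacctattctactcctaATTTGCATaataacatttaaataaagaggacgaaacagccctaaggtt
H1-4, chr6:26156307-26156556, plus strand: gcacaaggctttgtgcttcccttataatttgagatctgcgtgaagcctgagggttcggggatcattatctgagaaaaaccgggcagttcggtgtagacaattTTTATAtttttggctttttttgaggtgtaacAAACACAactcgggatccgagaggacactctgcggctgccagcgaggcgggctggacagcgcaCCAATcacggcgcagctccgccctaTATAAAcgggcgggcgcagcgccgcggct
H4C13 and its neighbour H3C11 had the highest H3K4me3 ratio to mock of all members. H2BC14 and H2AC14, whose start sites lie 245 bp apart on opposite strands, had the lowest H3K4me3 ratio, and the H2BC14 stretch covers the whole space between them. The H3K4me3 peak credited to both lay on the H2AC14 side. It ended at 27782558, 27782517 and 27782395 after E. coli MVs, V. cholerae MVs and mock, and covered the H2BC14 start site in no library. The ratio is thus hardly a value of the H2BC14 stretch itself. H1-4 was among the 3 highest after both MVs in H3K4me3. H4C13 holds CCAAT at 52 bases before the start site, GGTCCG at 45 bases and a TATA box at 28 bases, H2BC14 holds the octamer at 48 bases and 5 CCAAT letters in either direction, and H1-4 holds the H1 box at 117 bases.

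The libraries differed in depth and in the share of tags (mapped reads) that lay in peaks. H3K4me3 totals were 10528314, 13011839 and 3463875 tags after E. coli MVs, V. cholerae MVs and mock, of which 53.9%, 56.1% and 38.6% lay in listed peaks. FAIRE totals were 7888670, 12077180 and 14474665 tags, of which 37.3%, 13.9% and 7.12% lay in peaks. Peak values here are tags per 10000000 tags of the library, called normalised tags. H3K4me3 was listed at 11, 10 and 10 of 12 epithelial marker genes and at 2, 2 and 0 of 13 marker genes of other cell types after E. coli MVs, V. cholerae MVs and mock, and FAIRE at 10, 12 and 9 of the epithelial and 9, 6 and 6 of the other markers.

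Most histone genes carried H3K4me3 in every library. A peak within 1 kb of a start site was listed for 51 of 65 members after E. coli MVs, 52 after V. cholerae MVs and 49 in mock, that is 78.5%, 80% and 75.4%, against 64.2%, 65.2% and 60.4% of all protein-coding genes. The same 49 members had a peak in all 3 libraries. H2BC18 and H3C13, which share a peak in each MV list, had one only with MVs, at 11.4 normalised tags (12 tags) after E. coli MVs and 9.22 (12 tags) after V. cholerae MVs. The peak after E. coli MVs did not overlap the one after V. cholerae MVs. H2AC8 had a peak only after V. cholerae MVs, at 9.99 (13 tags). These 3 lie near the lowest value at which any H3K4me3 peak was listed, which was 7.60, 6.92 and 11.5 normalised tags after E. coli MVs, V. cholerae MVs and mock, and all 3 are below the lowest mock value.

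In all, 13 members had no H3K4me3 peak in any library: H4C14, H3C14, H3C15 and H4C15 in cluster 1, both genes of cluster 3 (H2AC1 and H2BC1), and H1-1, H2BC3, H3C3, H1-6, H4C7, H3C8 and H2BC10 in cluster 4. H1-6, H2AC1 and H2BC1 encode histones known from the testis. For the 4 genes of cluster 1 the sequence sets a limit. A stretch of 32 bases that occurs once in the genome can place a read of at least that length, and of the 1970 stretches within 1 kb of the start site none was single in H4C14, H3C14, H3C15 and H4C15, which occur as 2 copies. The near-identical H2AC18 and H2AC19 had 20.3% and 12.2% single stretches but none within 250 bp of the start site, and their listed peaks did not cover the start site in any library. H2AC18 had 242.2 normalised tags after E. coli MVs, 169.8 after V. cholerae MVs and 236.7 in mock, and H2AC19 had 167.2, 154.5 and 161.7. Reads of these 2 genes may have been split between them, and the sources used here name different versions of the aligner. In the other 9 unmarked members between 86.5% and 100% of stretches were single. H2BC18 and H3C13, which had a peak only with MVs, had 23.4% and 17.5% single stretches, so the same limit holds for them.

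**Figure D1:**
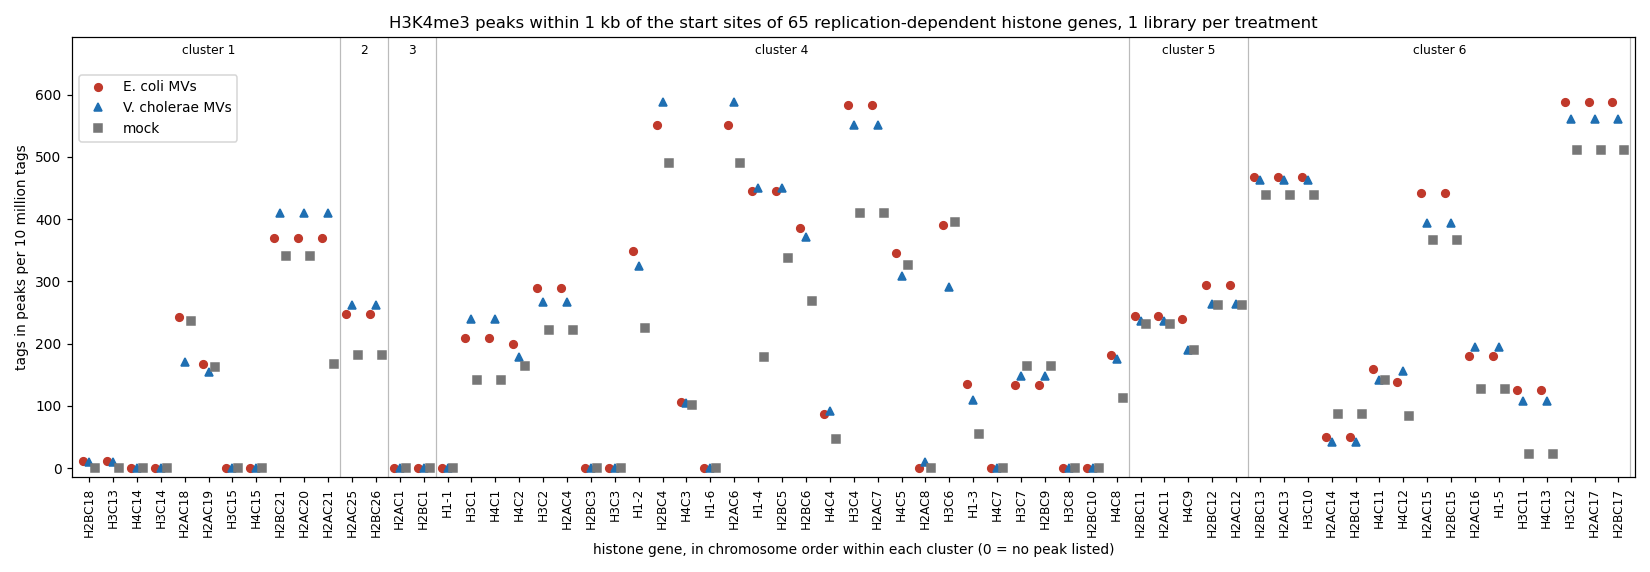
H3K4me3 values of the 65 histone genes. The vertical axis is tags in peaks within 1 kb of a start site per 10000000 tags, and genes stand in chromosome order within clusters 1 to 6; red circles are E. coli MVs, blue triangles V. cholerae MVs and grey squares mock, 1 library each, and 0 means that no peak was listed. Genes that share a peak show the same value, and the highest points are H3C12 at 587.9 after E. coli MVs and H2BC4 at 588.7 after V. cholerae MVs.

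The marked histone genes lay below the median marked gene. Among members with a peak the median was 247.9 normalised tags after E. coli MVs, 261.3 after V. cholerae MVs and 222.3 in mock, against 430.3, 462.7 and 306 for all genes with a peak. In the mock library the median member stood at the 34.6th percentile of genes with a peak. The classes overlapped widely. H4 genes had the lowest medians of the core histones, 171, 166 and 127 normalised tags after E. coli MVs, V. cholerae MVs and mock, and H2B genes the highest of the 5 classes with MVs, 370.4 and 372, with 303 in mock.

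Within each class a few genes set the range. The highest H2A, H2B and H3 values after E. coli MVs and in mock belonged to H2AC17, H2BC17 and H3C12, which share 1 peak of about 6 kb with 587.9 normalised tags after E. coli MVs, 560.3 after V. cholerae MVs and 511 in mock. The pair H2BC4 and H2AC6, with 551.8, 588.7 and 490.8 in the same order, was highest after V. cholerae MVs. H4C5 led the H4 genes with 345.7, 308.2 and 326.2, and H4C4 was low with 87.4, 92.2 and 46.2. Among H1 genes H1-4 was highest after E. coli MVs and V. cholerae MVs, at 444.5 and 449.6, and had 179 in mock. H1-3, another linker histone, had 134.9 and 109.9 with MVs and 54.9 in mock.

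Peaks were wide and often shared. The 51, 52 and 49 marked members used 32 peaks after E. coli MVs, 33 after V. cholerae MVs and 35 in mock, and 17, 17 and 19 of these lay near 2 or 3 members. The genes formed 11 divergent pairs on opposite strands. In 10 of them the start sites lay 194 to 251 bp apart, all of them an H2A with an H2B gene, and in H3C7 and H2BC9 they lay 979 bp apart. Apart from H2AC1 and H2BC1, which had no peak, both genes of every pair shared an H3K4me3 peak in each of the 3 libraries. The median width of a member's peak was 2503 bp after E. coli MVs, 2392 bp after V. cholerae MVs and 1803 bp in mock.

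**Figure D2:**
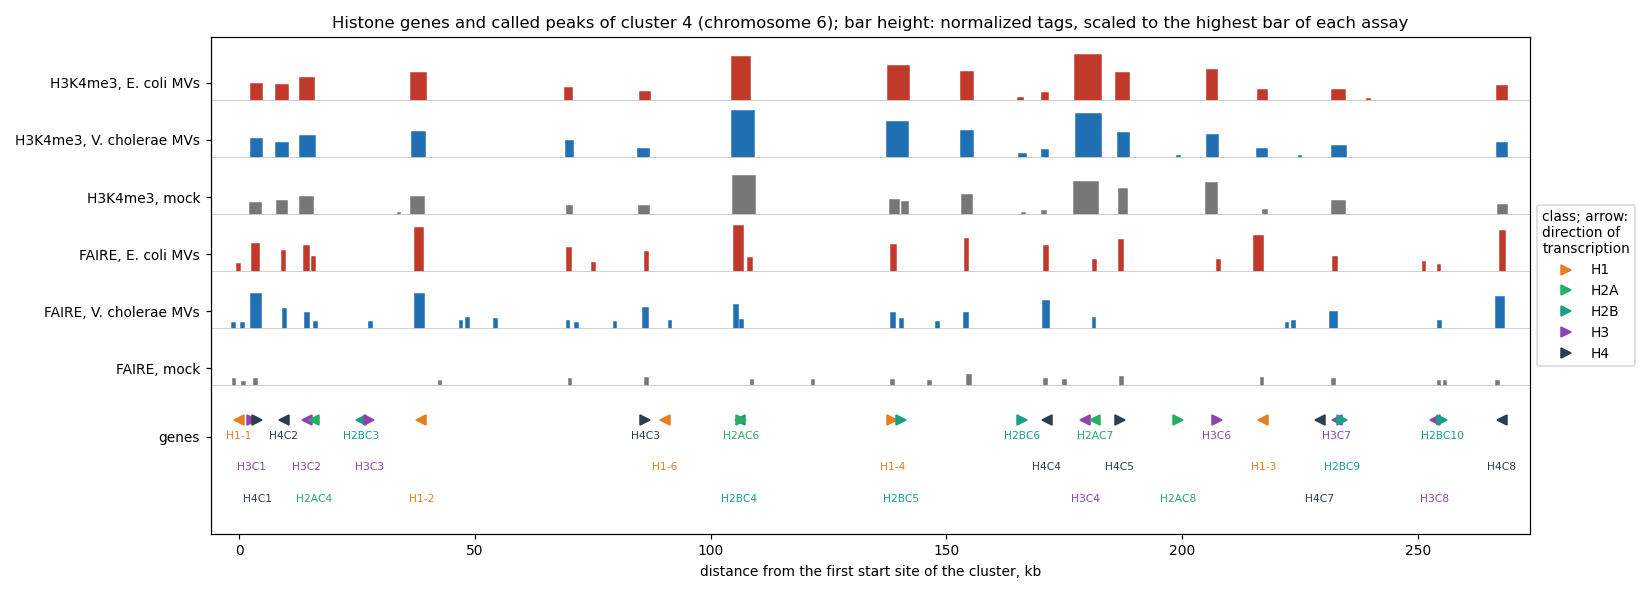
Map of cluster 4 on chromosome 6, the largest cluster, with 29 genes. The horizontal axis is the distance from the first start site in kb, bars are called peaks with their width to scale and their height in normalised tags relative to the highest bar of the assay, rows run from E. coli MVs through V. cholerae MVs to mock within each assay, and arrows are start sites coloured by histone class. H3K4me3 bars stand at 21 genes after E. coli MVs, 22 after V. cholerae MVs, which include H2AC8, and 21 in mock, and the mock FAIRE row holds low bars.

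Start sites themselves were more often inside a peak after MVs than after mock. An H3K4me3 peak covered the start site of 46 members after E. coli MVs, 46 after V. cholerae MVs and 31 in mock. Among members with a peak this was 90.2%, 88.5% and 63.3%, against 90.7%, 91.1% and 84.2% of all genes with a peak. Among the 49 members that had peaks in every library, 14 were covered after both MVs and not in mock and none the other way, against 8.99% and 0.381% of the 12073 genes with a peak in all 3. The 14 were H2AC4, H2AC12, H2AC16, H2AC20, H2AC25, H2BC5, H2BC6, H2BC12, H2BC21, H2BC26, H3C11, H4C4, H4C12 and H4C13. In 12 of them, all but H2BC5 and H2BC6, a FAIRE peak covered the start site after E. coli MVs, against 88.5% of all 1085 genes with this change. In mock, the nearest H3K4me3 peak ended between 49 and 541 bp from these start sites, with peaks on both sides in 7, inside the gene alone in 6 and before the start site alone in 1. Of the 14, the pairs H2BC21 and H2AC20, H2AC25 and H2BC26, and H2BC12 and H2AC12 each lay between the same 2 mock peaks. H3C11 and H4C13 lay on either side of a single mock peak. The 14 genes are thus not 14 separate sites. The mock library held 3463875 tags, the fewest of the 3, and the part of depth in this gain of cover was not tested.

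**Figure D3:**
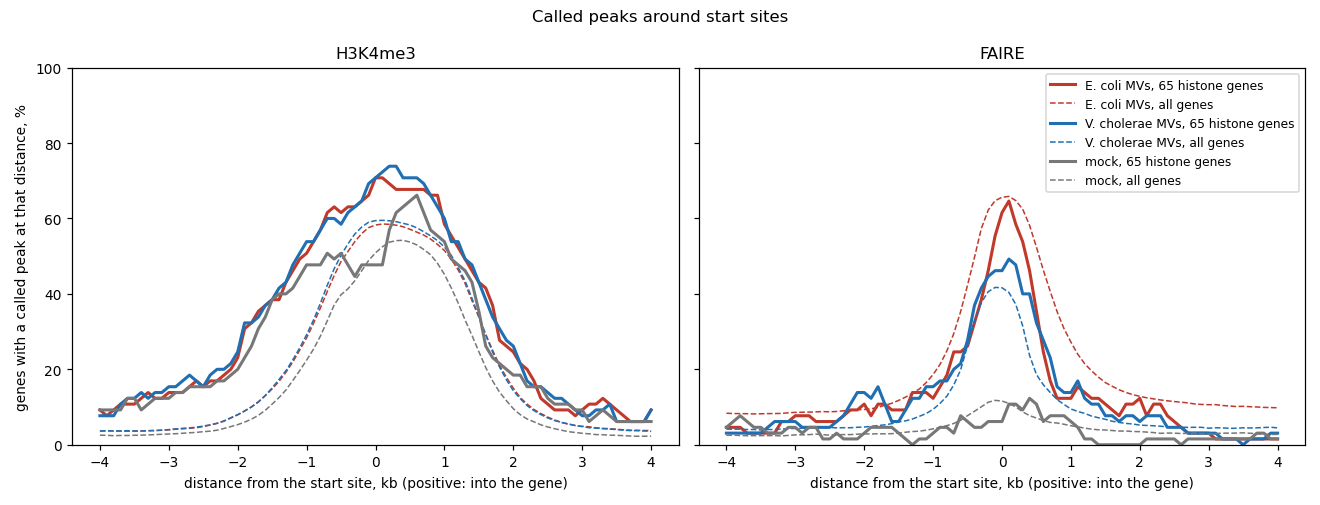
Share of genes with a called peak at each distance from the start site, in kb, positive into the gene. Solid lines are the 65 histone genes and dashed lines all protein-coding genes, red for E. coli MVs, blue for V. cholerae MVs and grey for mock. At the start site H3K4me3 peaks cover 70.8% of histone genes with each MV and 47.7% in mock, where the grey line dips, and FAIRE peaks cover 61.5%, 46.2% and 6.15%.

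The first comparison asks whether MVs of E. coli went with a change of H3K4me3 at histone genes. Summed over all clusters with each peak counted once, the genes had 8361 normalised tags after E. coli MVs and 6845 in mock, a log2 ratio of 0.29 (0.22 to 0.35). The median log2 ratio of the 49 genes was 0.27, against 0.52 for all 12090 genes with a peak in both libraries, so histone genes lay 0.24 below the common shift. When tags in peaks took the place of all tags as the scale, each ratio fell by 0.48 on the log2 scale and the histone median became -0.21. This scaling moves every gene equally, so it cannot change the distance from all genes. At least 1.5-fold higher after E. coli MVs were 9 of 49 members (18.4%), against 42.6% of all genes, and 2 were at least 1.5-fold lower, against 0.422%. Beyond counting error 21 members (42.9%) were higher, against 74.7% of all genes, and 2 (4.08%) lower, against 0.289%.

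The next comparison set V. cholerae MVs against mock. The sum was 7964 normalised tags after V. cholerae MVs and 6845 in mock, a log2 ratio of 0.22 (0.15 to 0.28). The median of 49 members was 0.26, against 0.63 for 12098 genes, 0.37 below it, and became -0.28 when scaled to tags in peaks, a shift of -0.54 for all genes. At least 1.5-fold higher were 12 members (24.5%), against 53.4% of all genes, and 2 were lower, against 0.636%. Beyond counting error 21 members (42.9%) were higher, against 75.5%, and 4 (8.16%) lower, against 1.92%. Both comparisons share the mock library.

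Peaks at histone genes were wider with MVs than in mock, as across all genes. The median length of called peak per gene with a peak was 2909 bp after E. coli MVs, 2959.5 bp after V. cholerae MVs and 2546 bp in mock for members. For all genes it was 2733, 2736.5 and 2363 bp in the same order. Called peaks at histone genes covered 88803 bp after E. coli MVs, 90802 bp after V. cholerae MVs and 75467 bp in mock, and the density was 94.2, 87.7 and 90.7 normalised tags per kb of peak. Per kb of called peak the median log2 ratio of members was 0.12 after E. coli MVs and -0.049 after V. cholerae MVs, against 0.24 and 0.33 for all genes.

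GC content moved with the ratios. The mock H3K4me3 peaks of members had a median GC content of 47.2%, against 54.8% for all genes, and 41 of the 49 members lay among the 25% of genes with the lowest GC. Among those 25% the median log2 ratio was 0.20 for members and 0.23 for all genes after E. coli MVs, and 0.12 for members and 0.13 for all genes after V. cholerae MVs. Among the 25% with the highest GC, which held no member, the medians of all genes were 0.95 and 1.29 with the same MVs.

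Single genes spread around these medians. H3C11 and H4C13, which share a peak, had 125.4 normalised tags after E. coli MVs and 108.4 after V. cholerae MVs, against 23.1 in mock, log2 ratios of 2.44 (1.42 to 3.68) and 2.23 (1.21 to 3.47). The mock value rests on 8 tags in a peak of 500 bp. H1-4 had a log2 ratio of 1.31 (0.93 to 1.72) after E. coli MVs and 1.33 (0.95 to 1.73) after V. cholerae MVs. In mock the region of H1-4 and H2BC5 was listed as 2 peaks and H1-4 was credited with 1 of them. Taken as 1 joined region it had 444.5, 449.6 and 337.8 normalised tags after E. coli MVs, V. cholerae MVs and mock, and the log2 ratios to mock were 0.40 (0.10 to 0.70) and 0.41 (0.12 to 0.71). The high value of H2AC21 had the same basis, since mock listed the region of H2BC21, H2AC20 and H2AC21 as 2 peaks, and the joined region had 370.4, 409.6 and 340.6.

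Few genes were lower than mock. H2AC14 and H2BC14 had 50.3 normalised tags (53 tags) after E. coli MVs and 41.5 (54 tags) after V. cholerae MVs, against 86.6 (30 tags) in mock, log2 ratios of -0.78 (-1.46 to -0.09) and -1.06 (-1.73 to -0.37). H2BC9, in 1 peak with H3C7, had 133.9 after E. coli MVs and 164.6 in mock, and its ratio of -0.30 (-0.75 to 0.17) lay within counting error. After V. cholerae MVs alone H3C6 was lower, with 290.5 against 395.5 in mock, at -0.45 (-0.73 to -0.15), and so was H2AC18, one of the near-identical copies, at -0.48 (-0.85 to -0.10). By class the median log2 ratio after E. coli MVs was 0.96 for 4 H1, 0.45 for 10 H4, 0.29 for 8 H3, 0.17 for 15 H2A and 0.16 for 12 H2B genes, and after V. cholerae MVs 0.81, 0.38, 0.20, 0.13 and 0.12 in the same order. With H1-4 taken as its joined region the H1 medians were 0.56 and 0.57. The classes are not separate sets of peaks. Many H2A genes share a peak with an H2B gene, H1-5 shares one with H2AC16, and H3C1 and H3C11 share theirs with H4C1 and H4C13. After both MVs the 4 H1 genes H1-2, H1-3, H1-4 and H1-5 were higher beyond counting error on the scale of all tags. So were 74.7% of all genes after E. coli MVs and 75.5% after V. cholerae MVs. With tags in peaks as the scale, H1-4 after both MVs and H1-3 after E. coli MVs stayed higher beyond counting error. On this scale H1-4 as a joined region was within counting error after both. Median promoter GC content was 50.8% in H1 and 47.2% in H4 genes, against 41.2% in H3, 42.4% in H2A and 41.6% in H2B genes. The part of GC content in the order of the classes was not tested.

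Joining overlapping peaks of the 3 libraries gave 34 H3K4me3 regions at histone genes, of which 31 had a peak in every library. After E. coli MVs 28 of the 31 had a log2 ratio to mock above 0, and 13 were higher and 1 lower beyond counting error. After V. cholerae MVs 24 were above 0, and 13 were higher and 3 lower. Of all genes with a peak in both libraries, 95.9% after E. coli MVs and 91.1% after V. cholerae MVs were above 0. Beyond counting error 74.7% and 75.5% of all genes were higher and 0.289% and 1.92% lower. These shares are over genes and not over joined regions. The median of the regions was 0.28 and 0.26, close to the medians over member genes. Scaled to tags in peaks these medians fell by 0.48 and 0.54.

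Between the MVs, the H3K4me3 sum at histone genes was 7964 normalised tags after V. cholerae MVs and 8361 after E. coli MVs, a log2 ratio of -0.070 (-0.11 to -0.029). None of 51 members was 1.5-fold higher or 1.5-fold lower after V. cholerae MVs, against 6.3% and 0.901% of all genes, and beyond counting error 3 (5.88%) were lower, against 9.41%, and none higher, against 37.4%. The median was -0.070 in members and 0.11 in all genes, and -0.082 and -0.11 among those in the 25% of lowest GC.

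FAIRE peaks at histone genes were listed more often with MVs than in mock, as across all genes. A FAIRE peak was listed for 47 members after E. coli MVs, 44 after V. cholerae MVs and 16 in mock, that is 72.3%, 67.7% and 24.6%, against 77.7%, 62.4% and 41.7% of all genes. Both MVs and not mock gave a peak at 26 members, all 3 libraries at 14, E. coli MVs and mock at 2 (H4C5 and H1-3), E. coli MVs alone at 5 (H3C6, H4C9, H4C12, H3C11 and H4C13) and V. cholerae MVs alone at 4 (H3C3, H1-6, H2BC5 and H4C11). None had a FAIRE peak in mock alone, and 14 had none at all. The shares of all genes with each of these patterns were not counted, so the patterns cannot be set against all genes. By class, mock FAIRE peaks were listed at 3 of 6 H1, 1 of 17 H2A, 3 of 16 H2B, 4 of 13 H3 and 5 of 13 H4 genes. Only 1 of the divergent pairs, H2BC11 and H2AC11, had a shared peak in mock, while all 10 pairs with H3K4me3 shared FAIRE peaks with each MV.

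**Figure D4:**
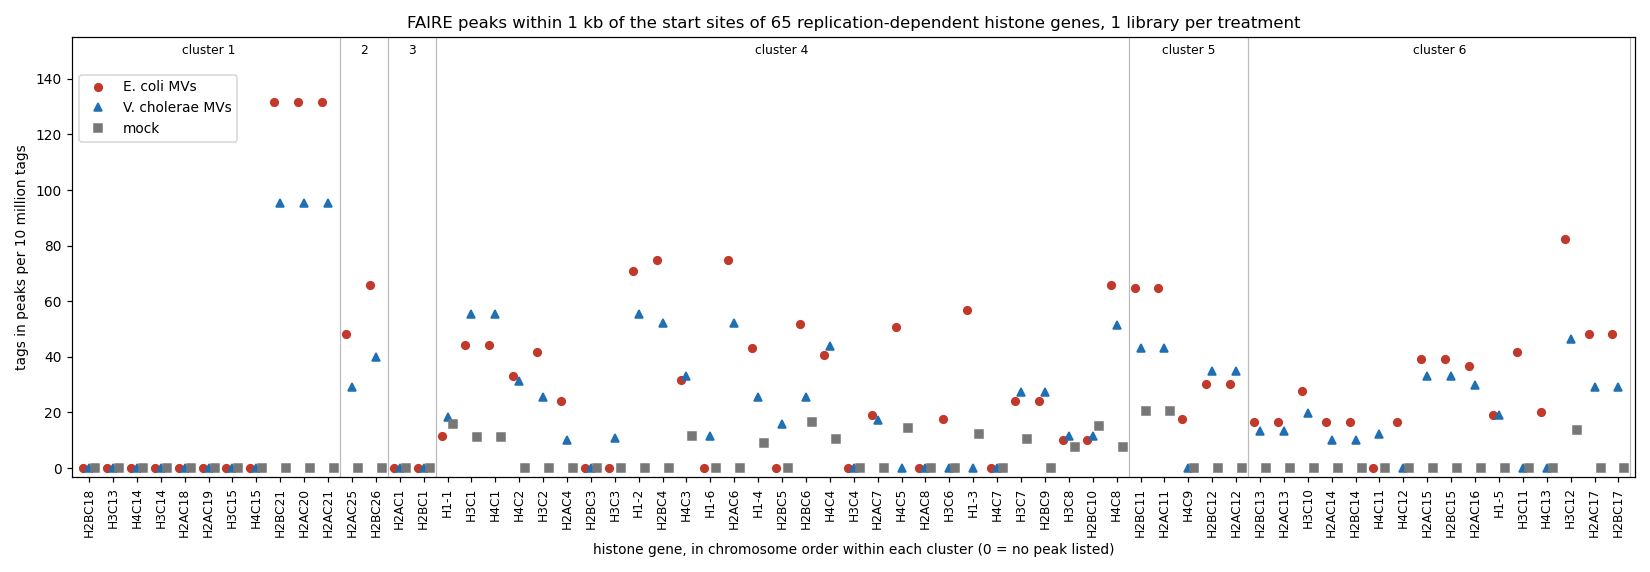
FAIRE values of the 65 histone genes, drawn as for H3K4me3: tags in peaks within 1 kb of a start site per 10000000 tags, red circles for E. coli MVs, blue triangles for V. cholerae MVs and grey squares for mock, 1 library each. H2BC21, H2AC20 and H2AC21 stand highest with 131.8 and 95.2 with the MVs and no peak in mock, and no mock value is above 20.7.

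FAIRE values were low. Members with a peak had a median of 39.3 normalised tags after E. coli MVs, 29 after V. cholerae MVs and 12.1 in mock, against 105.2, 38.1 and 14.5 for all genes with a peak. The highest were H2BC21, H2AC20 and H2AC21, with 131.8 after E. coli MVs and 95.2 after V. cholerae MVs in 1 peak of about 3 kb and none in mock. H1-2, a linker histone, had 71 and 55.5 with the MVs and none in mock. Summed over the clusters with each peak once, FAIRE tags were 1319.5 after E. coli MVs, 919.3 after V. cholerae MVs and 169.3 in mock, the last from 245 tags in 15 peaks.

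Against mock the ratios can be given only where mock had a peak. After E. coli MVs the median log2 ratio of 16 members was 1.73, against 3.07 for 7991 genes, and 13 members (81.3%) were at least 1.5-fold higher, against 97.2% of all genes, with none lower, against 0.3%. Scaled to tags in peaks all these ratios fell by 2.39 on the log2 scale and the member median became -0.66. The distance of 1.34 from all genes cannot change with this scaling. Among the 25% of genes with the lowest GC, the medians were 1.81 for 11 members and 2.93 for all genes. Per kb of called peak the medians were 0.89 for the 16 members and 1.27 for all genes, a smaller distance of 0.38. After V. cholerae MVs the median of 14 members was 1.45, against 1.38 for 7091 genes, and 12 members (85.7%) were 1.5-fold higher, against 75% of all, with none lower, against 4.7%. Scaled to tags in peaks these fell by 0.97, to 0.48 in members.

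H4C8 had the highest FAIRE ratio to mock after both MVs. It had 65.9 normalised tags after E. coli MVs and 51.3 after V. cholerae MVs, against 7.60 (11 tags) in mock, log2 ratios of 3.12 (2.16 to 4.20) and 2.76 (1.82 to 3.83). The E. coli MV peak of H4C8 did not overlap its mock peak, so the first ratio sets different stretches of DNA against each other, while the V. cholerae MV peak overlapped both. H3C12 followed after E. coli MVs, 82.4 against 13.8 in mock, at 2.58 (1.83 to 3.38), or 1.31 for the only peak of it that overlapped the mock peak, and H1-4 at 2.26 (1.3 to 3.31), 43.1 against 8.98. H3C1 and H4C1, which share a peak, had 55.5 after V. cholerae MVs against 11.1 in mock, at 2.33 (1.52 to 3.21). H2BC10, H1-1 and H3C8 were at the low end with values within counting error of mock, 10.1 for H2BC10 after E. coli MVs, 11.6 after V. cholerae MVs and 15.2 in mock. These 3 genes had FAIRE peaks in all 3 libraries and H3K4me3 in none. With tags in peaks as the scale H1-4 fell to -0.13 after E. coli MVs, and the overlapping peak of H3C12 to -1.08.

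Between the MVs, the FAIRE difference was smaller at histone genes than across all genes. The sum was 919.3 normalised tags after V. cholerae MVs and 1319.5 after E. coli MVs, a log2 ratio of -0.52 (-0.65 to -0.40). The median of 40 members with both peaks was -0.36, against -1.59 for 12113 genes, and 13 members (32.5%) were at least 1.5-fold lower after V. cholerae MVs, against 91.8% of all genes. H1-1 was 1.5-fold higher (1 of 40, 2.50%), against 0.586%, but within counting error and from peaks that did not overlap. Scaled to tags in peaks all ratios between the MVs rose by 1.42 and the member median became 1.07. This scaling moves every gene equally, so it cannot change the distance of 1.23 from all genes. Among the 25% of lowest GC the medians were -0.31 for 37 members and -1.22 for all genes. Per kb of called peak the medians were -0.36 for the 40 members and -0.82 for all genes, a smaller distance of 0.46. The members' FAIRE peaks were among the weaker ones after E. coli MVs, at a median percentile of 17.9 among genes with a peak, and the part of peak size in the smaller difference was not tested.

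At marked histone genes FAIRE peaks were less frequent than at marked genes in general. Among members with H3K4me3, 86.3%, 75% and 26.5% also had a FAIRE peak after E. coli MVs, V. cholerae MVs and mock, against 97.2%, 84.0% and 53.5% of all genes with H3K4me3. Of the FAIRE peaks near members, 32 of 35 after E. coli MVs, 29 of 34 after V. cholerae MVs and 11 of 15 in mock shared at least 1 bp with an H3K4me3 peak of the same treatment, that is 91.4%, 85.3% and 73.3%, against 49.9%, 58.0% and 35.3% of the FAIRE peaks within 1 kb of any start site. FAIRE without H3K4me3 was found at H1-1, H3C8 and H2BC10 in every treatment and at H3C3 and H1-6 after V. cholerae MVs.

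The intervals of the clusters overlapped in H3K4me3 after E. coli MVs. The log2 ratio of the cluster sum after E. coli MVs to mock was 0.098 (-0.11 to 0.31) in cluster 1, 0.45 (0.045 to 0.87) in cluster 2, 0.34 (0.25 to 0.44) in cluster 4, 0.18 (-0.027 to 0.40) in cluster 5 and 0.27 (0.15 to 0.41) in cluster 6. After V. cholerae MVs it was 0.0080, 0.52, 0.28, 0.012 and 0.21 in the same order, with intervals above 0 in clusters 2, 4 and 6. Cluster 3 had no peak of either kind. In FAIRE, clusters 1 and 2 had no mock peak, and mock listed 1 peak with 20 tags in cluster 6, so clusters were not ranked by their FAIRE ratio to mock. Where a joined region had a peak in both libraries, in 12 regions for each MV, the log2 ratio to mock ran between 0.42 and 3.12 after E. coli MVs and between -0.087 and 2.76 after V. cholerae MVs.

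Genes around the clusters and genes that serve histone supply gave a setting for these values. The 40 protein-coding genes other than members within 250 kb had median H3K4me3 log2 ratios of 0.40 after E. coli MVs and 0.42 after V. cholerae MVs, over 24 genes with peaks. They include a gene with the values of the H3C4 and H2AC7 peak, 584.1, 551.8 and 409.9 normalised tags after E. coli MVs, V. cholerae MVs and mock. This set is thus not fully separate from the members. A list of 29 genes for the transcription and 3′ processing of histone mRNAs had a peak at all 29 in each library and medians of 0.44 and 0.54, with 9 and 13 genes (31.0% and 44.8%) at least 1.5-fold higher, against 42.6% and 53.4% of all genes, and none lower. CCNE1, the cyclin E that activates CDK2 at the start of S phase, had the highest ratios of this list. CCNE1 had 153.9 normalised tags after E. coli MVs and 167.5 after V. cholerae MVs, against 17.3 in mock. The log2 ratios were 3.15 (1.998 to 4.618) and 3.27 (2.129 to 4.736). This mock value lies near 11.5 (4 tags), the lowest of any mock H3K4me3 peak, so the size of both ratios is uncertain. CCNE2, the second cyclin E gene, had ratios of 0.90 and 1.17. SNRPE and SNRPF, Sm proteins shared by the U7 and the spliceosomal particles, were lowest, at -0.092 and -0.085 after E. coli MVs and at -0.25 and -0.21 after V. cholerae MVs.

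Variant histone genes, taken from a list, had higher median ratios than the members. Of 18 variant histone genes 10 had a peak in both libraries of each comparison, with medians of 0.76 after E. coli MVs and 0.95 after V. cholerae MVs. H1-10, a linker histone variant, had log2 ratios of 1.1 and 1.67. H2AZ1, which encodes the variant H2A.Z, had 1123, 584.1 and 840.1 normalised tags after E. coli MVs, V. cholerae MVs and mock, and H2AZ2 had 606.9, 602.5 and 640.9. The 18 histone chaperone genes all had peaks, with medians of 0.42 and 0.50, CHAF1B, a subunit of the chaperone CAF-1, at 0.73 and 0.95, and SUPT16H, a subunit of FACT, at -0.13 and -0.33. All of these ratios fell by 0.48 after E. coli MVs and fell by 0.54 after V. cholerae MVs when scaled to tags in peaks.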

How the data were processed

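The files were 6 peak lists, 1 for each treatment and assay. 2 input libraries had no processed file here and were not analysed. Per the submitters' processing notes reads were mapped to hg19 with Bowtie 1.1.2, sorted with SAMtools 1.3.1 and passed to HOMER 4.7.2; the study's methods name Bowtie 2 with default settings. Per the file headers, the authors called peaks with findPeaks in the histone style against an input library, at least 4-fold over input at a Poisson p-value of 0.0001. At most 1 tag per position was used, and a distance of 1000 bp was set for joining peaks. Some listed peaks still had edges closer than that, such as the 2 mock H3K4me3 peaks of H1-4 and H2BC5. The deposited signal is the tag count of a peak normalised to 10000000 tags. The deposited fold ratio over input was used for a stricter set of at least 8-fold. Which aligner made these lists could not be settled, so the treatment of multiply mapping reads is not known here, and read length is not given in the sources used here. The authors' region sizes, scores, control tags and p-values were not used.

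Whole tags were recovered from the normalised value and the library total, to within 0.0721 of a whole number. A gene's value was the sum over peaks within 1000 bp of any start site in GENCODE release 44 lifted to GRCh37; cluster sums counted each peak once. Log2 ratios had exact conditional (Clopper-Pearson) 95% intervals, checked on simulated tags; no test between treatments was made, since each has 1 library. Members and lists were chosen with earlier results of these data known. All members could be named; ratios are given for the 3 highest and 3 lowest per MV against mock among members with a peak in all 3 libraries, the extremes of each class and up to 2 genes at each end of other lists. H2AC21, the joined regions, the start-site counts, H3C6 and the 3 promoters were chosen after values were seen, and some results are not reported here. Alternatives changed the scale, window, peak threshold, peak length and overlap. RefSeq gene names (GRCh38.p14 table) matched 2 older symbols. Promoter sequence was read from the GRCh37 genome. Python 3.11.15, NumPy 2.4.6, SciPy 1.17.1 and Matplotlib 3.10.9 were used.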

Additional observations from a re-analysis of the deposited data

How the results depend on the processing

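No paired analysis was possible because there is 1 library for each treatment and assay, so no replicate could be left out either. Of 119 values of medians, sums and counts of members with a peak under other settings, 86 stayed within their interval or within 1.5 times, 24 moved and 9 reversed. The interval of a sum covered counting error, and that of a median came from the ranks of the member genes. Many members share a peak, so the interval of a median does not measure a spread of independent values. Scaling to the tags in peaks was the setting with most reversals. It gave H3K4me3 medians of members of -0.21 and -0.28 and sums of -0.19 and -0.32 against mock after the 2 MVs (E. coli, then V. cholerae), and -0.13 for both the median and the sum between the MVs. In clusters 2, 4 and 6 it gave -0.036, -0.14 and -0.21 after E. coli MVs and -0.019, -0.26 and -0.33 after V. cholerae MVs. For FAIRE it gave a median of -0.66 and a sum of 0.57 after E. coli MVs, 0.48 and 1.47 after V. cholerae MVs, and 1.07 and 0.90 between the MVs, with 0.95, 0.69, 0.98, 0.89 and 0.73 in clusters 1, 2, 4, 5 and 6 and -0.13 for H1-4 after E. coli MVs. It moved the number of members at least 1.5-fold higher and lower in H3K4me3 to 5 and 4 (from 9 and 2) after E. coli MVs and 4 and 8 (from 12 and 2) after V. cholerae MVs, and in FAIRE to 1 and 9 (from 13 and 0), 5 and 2 (from 12 and 0), and 38 and 0 (from 1 and 13) between the MVs. The share of all genes past 1.5-fold was not counted under any other setting, so such counts cannot be set against all genes. On the scale of tags in peaks the H3K4me3 medians of all genes were 0.034 and 0.092 against mock and 0.056 between the MVs. In FAIRE the medians of all genes were 0.68 and 0.41 against mock and -0.17 between the MVs.

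Tags per 1000 bp of called peak gave H3K4me3 medians of 0.12 and -0.049 and sums of 0.054 and -0.048 against mock, with -0.049 in cluster 2 and -0.068 in cluster 6 after V. cholerae MVs, and 0 and 2 members 1.5-fold higher. In FAIRE this gave a median of 0.89 and sums of 0.97 and 0.57 against mock. Joined regions and members counted once per peak left 1 in place of 2 lower than mock in H3K4me3. Between the MVs the single FAIRE member 1.5-fold higher was lost (0 in place of 1) with a 500 bp window, per 1000 bp, overlapping peaks, joined regions or stricter peaks.

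Stricter peaks, at least 8-fold over input, left FAIRE peaks at 13, 4 and 1 members and 7, 2 and 0 FAIRE peaks in H3K4me3 peaks after E. coli MVs, V. cholerae MVs and mock, the FAIRE median at 0.42 over 1 member and the sums at 5.54, 2.89 and -2.65 in the 3 comparisons, with 0 members 1.5-fold higher than mock and 2 lower between the MVs; no median could be given for V. cholerae MVs against mock. Only overlapping peaks gave FAIRE sums of 1.71, 1.39 and -0.38, and a 500 bp window gave 3.18 for E. coli MVs against mock. The cause of these moves was not tested. Canonical start sites alone and joined regions were added after seeing the data and moved no median or count of members with a peak beyond its interval. Low FAIRE tag numbers in mock and the near-identical genes of cluster 1 limit what can be read. So do the low shares of single stretches near some other start sites, such as those of H4C11, H4C12 and H2AC14.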
